A study of Mus musculus with 3 samples.

Results

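The ETS factors of endothelium described here are 10 genes chosen by name (Etv2, Fli1, Erg, Ets1, Ets2, Elk3, Etv6, Elf1, Elf2 and Gabpa), out of 23397 genes measured, and all 10 were found. Their transcript levels were read in 3 RNA-seq libraries of mouse cells, 1 library per group. The groups were SclKO, cells lacking Scl (Tal1), a transcription factor needed for blood formation; Gata12KO, labelled as a knockout of Gata1 and Gata2; and WT, wild type. All 3 started from embryonic stem cells grown into embryoid bodies, the aggregates in which such cells differentiate, for 4.75 days, and all were sorted as Tie2+CD31+CD41- cells. The sources used here do not say whether each stem cell line was 1 clone. Each value is a pool of sorted cells, in which fewer cells expressing a gene and less RNA per cell cannot be told apart.

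Levels are in FPKM, a count of fragments scaled to transcript length and to library size, and the authors deposited a lower and an upper bound with each value. The bounds do not cover variation between cultures, and with no replicates no test between groups was possible. For genes with 1 entry in the files they are close to counting error. For genes with more entries, such as Ets1, they can also hold error in dividing reads between entries. Depth implied by the bounds was 28.3M fragments in SclKO, 50.3M in Gata12KO and 31.6M in WT. A gene is called higher or lower below when its FPKM was at least 1 in either library, its ratio of FPKM + 1 was at least 2-fold (a log2 ratio beyond 1) and the bounds of both libraries did not overlap. Log2 ratios are on the log2(FPKM + 1) scale, which draws the ratios of weakly expressed genes towards zero, and their SE is the error that the bounds imply. The targeted gene Tal1 had 1.59 FPKM in SclKO and 51.0 in WT. Gata1 had 5.66 FPKM in Gata12KO and 4.64 in WT, and Gata2 had 44.9 and 12.0, so that these levels do not show the knockout named by the label. FPKM over whole transcripts cannot show the loss of an exon, and the wording "the library labelled Gata12KO" is kept below for that reason.

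ETS factors share a DNA-binding domain, the ETS domain, that recognises sites with the core GGAA. In vascular development Etv2 acts early and briefly and turns on endothelial and blood genes, while Fli1 and Erg take over to keep endothelial genes active. Ets1 and Ets2 are activated by ERK phosphorylation and act together in vessel growth, Elk3 and Etv6 are mainly repressors, and Elf1, Elf2 and Gabpa are expressed in many tissues. Several members also act in blood cells, among them Fli1, Erg, Ets1 and Etv6.

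All 10 members had at least 1 FPKM in every library, so none was lost to the filter on low values. The order of levels differed between libraries. In SclKO, Etv2 stood at the top with 70.4 FPKM (bounds 67.0 to 73.8), followed by Elk3 with 25.4 (24.5 to 26.4) and Elf2 with 18.3 (17.3 to 19.4). In the library labelled Gata12KO, Ets2 stood at the top with 102 FPKM (100 to 103), followed by Fli1 with 44.8 (43.7 to 45.9) and Etv2 with 38.7 (36.8 to 40.6). In WT, Ets2 was also at the top with 84.0 FPKM (82.2 to 85.8), ahead of Etv2 with 49.0 (46.4 to 51.7) and Fli1 with 39.5 (38.2 to 40.8). Ets2 thus led in the library labelled Gata12KO and in WT, and was the fourth member in SclKO. Neighbours in the order had separate bounds except Gabpa and Ets1, and Erg and Elf1, in SclKO, and Ets1 and Elf2, and Gabpa and Erg, in WT. Elf1 was the lowest member in all 3 libraries. Among genes of at least 1 FPKM, 94.3% had a level at or below that of Ets2 in WT, against 7.07% for Elf1.

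**Figure D1:**
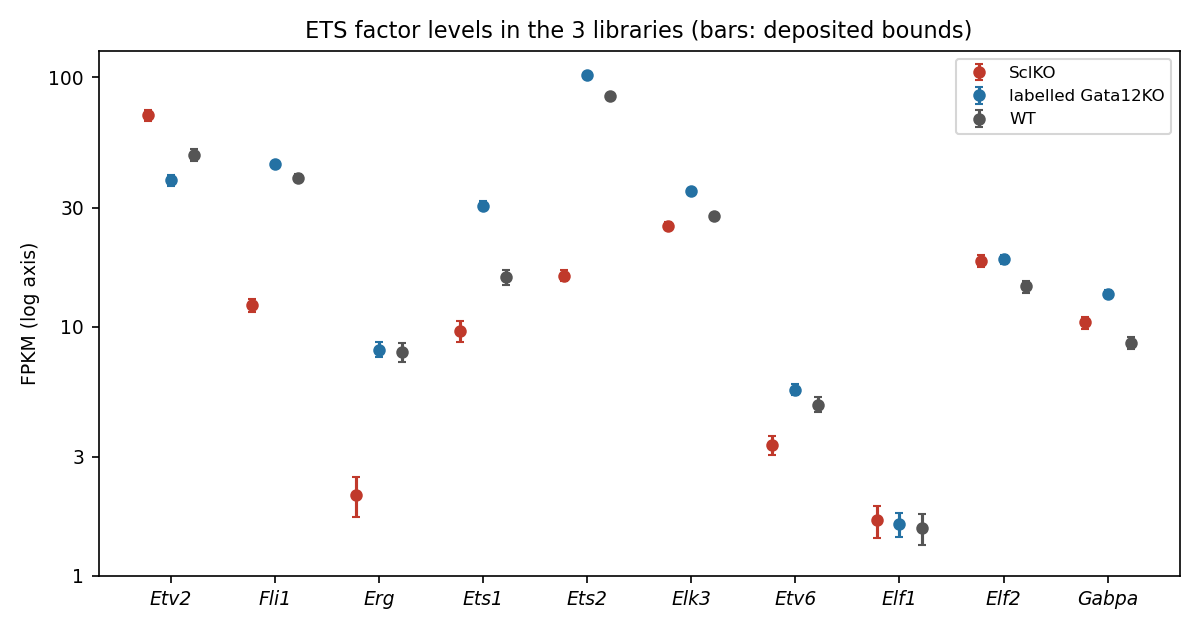
FPKM of the 10 ETS factors (log axis) in SclKO (red), the library labelled Gata12KO (blue) and WT (grey), 1 library each, with bars for the deposited bounds. Ets2, Fli1, Erg and Ets1 are lowest in SclKO, Etv2 is highest there at 70.4 FPKM, and Elf1 lies between 1.55 and 1.67 FPKM in all 3.

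Shares within a library do not depend on how libraries are scaled to each other. The 10 members together came to 169 FPKM in SclKO, 299 in the library labelled Gata12KO and 254 in WT. Etv2 made up 41.6% of that sum in SclKO, 13.0% in the library labelled Gata12KO and 19.3% in WT. Ets2 made up 9.46% in SclKO, 34.1% in the library labelled Gata12KO and 33.1% in WT. The early factor therefore had the largest share in SclKO, and Ets2 had it in the other 2 libraries. The level of Etv2 over that of Fli1 was 5.79 in SclKO (5.18 to 6.49 from the bounds), 0.864 in the library labelled Gata12KO (0.802 to 0.928) and 1.24 in WT (1.14 to 1.36). Etv2 over Erg was 33.4 in SclKO (26.9 to 42.9), 4.78 in the library labelled Gata12KO (4.25 to 5.38) and 6.20 in WT (5.38 to 7.18). The 3 intervals were separate for Etv2 over Fli1, while for Etv2 over Erg those of the library labelled Gata12KO and WT met at 5.38. Etv2 has the shortest transcript of the set, 1048 nt, and ratios between these libraries moved with transcript length, with the values given below.

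**Figure D2:**
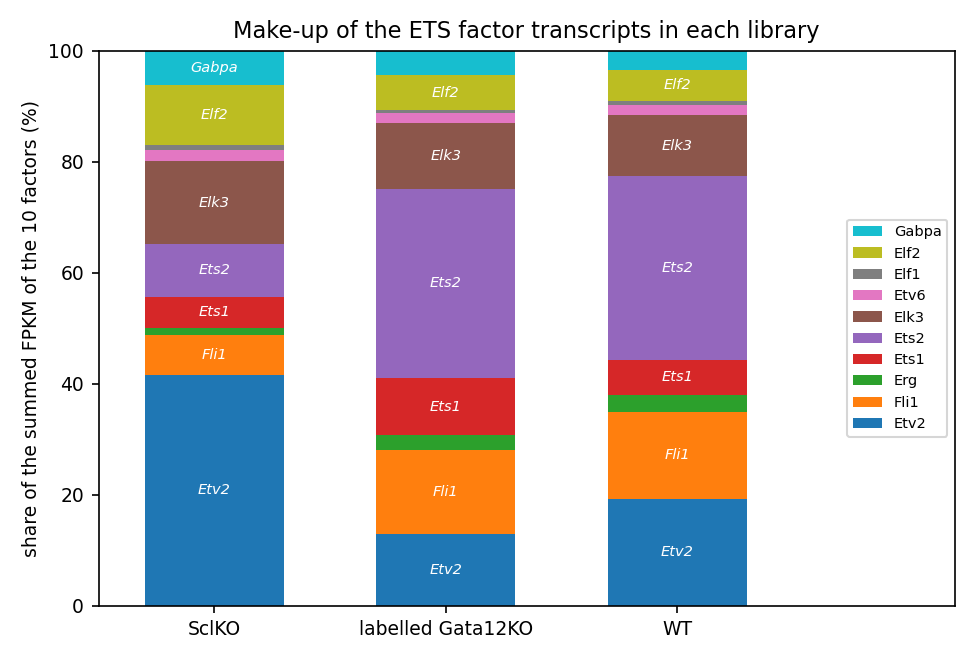
Share of each ETS factor in the summed FPKM of the 10 factors (percent, bars from 0 to 100) in SclKO, the library labelled Gata12KO and WT. Etv2 takes 41.6% in SclKO against 19.3% in WT, and Ets2 takes 9.46% in SclKO against 33.1% in WT.

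Upstream sequences are shown for Ets2 and Erg, which were lower in SclKO, and for Etv2, which was not. They are the 250 bases before the annotated start, from RefSeq on GRCm38.p6, printed 5′ to 3′ along the gene, with each GGAAG, read on either strand, in capitals. Of the members, 8 matched the promoter table and Fli1 and Ets1 did not. The window of Ets2 is at chr16:95702157-95702406 on the forward strand, before a start that lies 332 nt from that of the transcript in the files. The window of Erg is at chr16:95530366-95530615 on the reverse strand (of its 3 listed starts, the one that matches the transcript in the files). That of Etv2 is at chr7:30635853-30636102 on the reverse strand. Because another listed start of Erg lies 56228 nt further upstream, the printed Erg window may lie inside the gene. Its GC content was 36.0%, against 71.6% for Ets2 and 50.0% for Etv2. Whether the Erg window is a promoter was not tested, and its counts below are read with that limit.
Ets2: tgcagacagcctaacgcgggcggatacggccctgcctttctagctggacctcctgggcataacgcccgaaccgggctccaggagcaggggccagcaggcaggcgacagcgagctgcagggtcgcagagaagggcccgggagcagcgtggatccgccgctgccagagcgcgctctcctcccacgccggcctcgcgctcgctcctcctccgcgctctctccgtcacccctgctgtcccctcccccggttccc
Erg: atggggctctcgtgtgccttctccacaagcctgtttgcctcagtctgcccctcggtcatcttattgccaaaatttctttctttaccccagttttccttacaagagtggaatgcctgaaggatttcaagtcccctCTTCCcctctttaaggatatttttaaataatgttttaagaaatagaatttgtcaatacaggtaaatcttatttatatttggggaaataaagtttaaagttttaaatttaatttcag
Etv2: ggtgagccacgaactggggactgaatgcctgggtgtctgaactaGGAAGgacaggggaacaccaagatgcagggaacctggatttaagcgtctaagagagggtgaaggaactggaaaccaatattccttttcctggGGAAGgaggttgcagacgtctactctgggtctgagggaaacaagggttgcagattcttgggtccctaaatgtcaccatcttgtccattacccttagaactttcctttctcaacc
The letters GGAAG were found 0 times for Ets2, 1 time for Erg and 2 times for Etv2, and 64.1% of 32851 upstream windows of the same length hold them on either strand. None of the 3 windows held CCGGAA, a longer ETS motif that overlaps GGAAG (12.0% of windows), AGATAA, which the Gata factors bind (9.99%), or CANNTG, the E-box bound by Scl with its partners (66.2%). Another listed start of Erg, chr16:95459349-95459598, held AGATAA 1 time and CANNTG 2 times. Among the other members, Gabpa held CCGGAA 1 time and GGAAG 3 times. These counts describe letters in a short window and say nothing of binding there or at a distance.

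In SclKO against WT, the members that were low did not include the early factor Etv2. By the size rule 3 of 10 members were lower, Ets2, Fli1 and Erg, and 0 were higher, where 4.30% of 10939 genes tested were lower and 2.15% higher. Ets2, a target of ERK signalling, had 16.0 FPKM in SclKO (15.2 to 16.8) and 84.0 in WT (82.2 to 85.8). That was 5.24-fold lower in SclKO, a log2 ratio of -2.32 (SE 0.038), with bounds far apart. Fli1, which directs both vessel and megakaryocyte development, had 12.2 FPKM in SclKO (11.4 to 12.9) and 39.5 in WT (38.2 to 40.8), a log2 ratio of -1.62 (SE 0.048). Erg, which maintains endothelial junctions and identity, had 2.11 FPKM in SclKO (1.72 to 2.49) and 7.91 in WT (7.21 to 8.61), a log2 ratio of -1.52 (SE 0.11). The bounds of SclKO and WT were separate for these 3. The 10 members were chosen with earlier results of these data known. The Erg value in SclKO rests on an implied 120 fragments, against 1521 for Ets2 and 993 for Fli1. With a pseudocount of 5 the ratio of Erg became -0.86 and its call ended, while Ets2 and Fli1 were called under all 11 alternative settings.

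Ets1, the close relative of Ets2, was below WT but inside the 2-fold limit. It had 9.58 FPKM in SclKO (8.66 to 10.5) and 15.8 in WT (14.7 to 16.9), a log2 ratio of -0.67 (SE 0.079). Etv2 had 70.4 FPKM in SclKO (67.0 to 73.8) and 49.0 in WT (46.4 to 51.7), a log2 ratio of 0.51 (SE 0.052). It was thus the member with the highest ratio in this comparison, on the other side of zero from Fli1, Erg, Ets1 and Ets2. Its ratio ran from 0.39 to 0.79 over the 7 alternatives that give a ratio, the highest value being the one with the length trend removed.

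The repressors and the widely expressed members stayed within 2-fold of WT in SclKO, with Etv6 the farthest below it. Elk3, a ternary complex factor that partners serum response factor, had 25.4 FPKM in SclKO and 27.8 in WT, a log2 ratio of -0.13 (SE 0.035), which turned to 0.02 when libraries were scaled to the sum over transcripts of 300 nt or longer. Etv6, a repressor needed for yolk sac vessels, had 3.35 FPKM in SclKO (3.05 to 3.65) and 4.86 in WT (4.52 to 5.20), a log2 ratio of -0.43 (SE 0.065). Both were within 2-fold of WT. Elf2 had 18.3 FPKM in SclKO and 14.5 in WT, and Gabpa had 10.4 and 8.61, with log2 ratios of 0.32 (SE 0.055) and 0.24 (SE 0.050). Elf1 had 1.67 FPKM in SclKO (1.42 to 1.91) and 1.55 in WT (1.33 to 1.77), and its ratio of 0.06 (SE 0.091) turned to -0.01 in TPM. Among the members, Elf1 alone had overlapping bounds. Separate bounds were common at this depth, in 58.4% of all genes tested, so the 9 of 10 members with separate bounds are read by size.

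**Figure D3:**
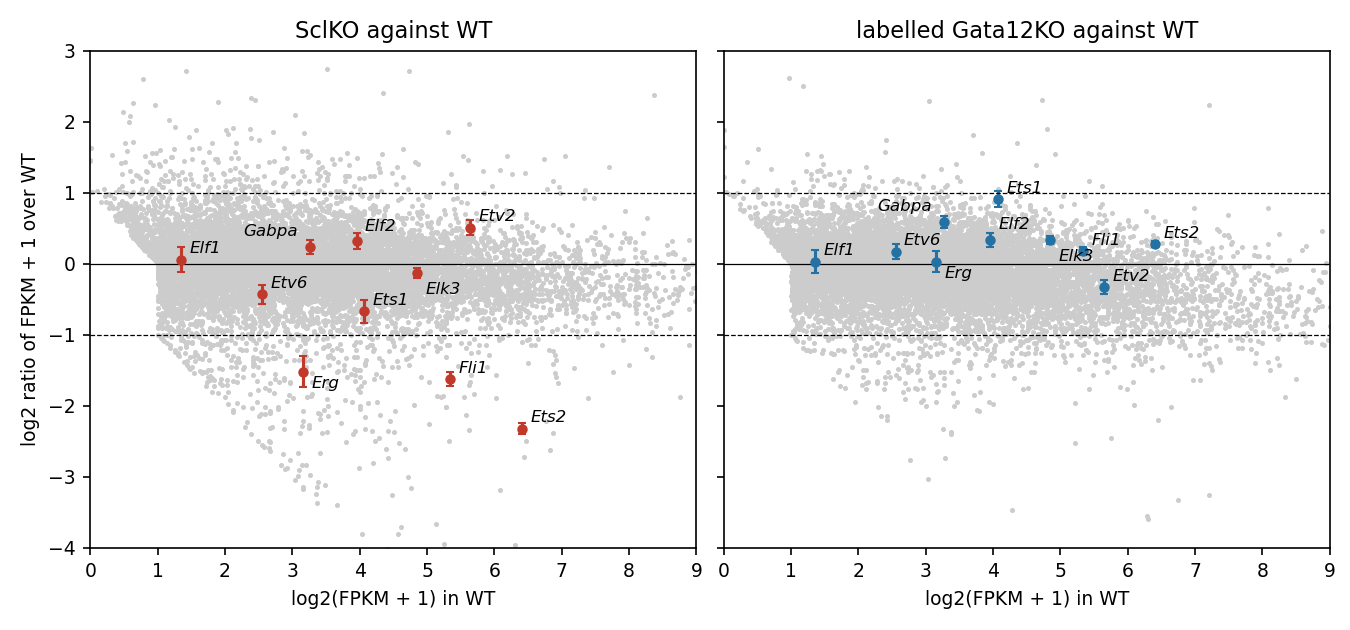
Log2 ratio of FPKM + 1 over WT (vertical) against log2(FPKM + 1) in WT (horizontal) for SclKO (left) and the library labelled Gata12KO (right). Grey points are genes of at least 1 FPKM in either library, of which a few lie outside the axes, coloured points are the 10 ETS factors with bars of 2 SEs from the bounds, and dashed lines mark 2-fold. In SclKO, Ets2 (-2.32), Fli1 (-1.62) and Erg (-1.52) lie below the lower line, and in the library labelled Gata12KO all 10 lie between the lines.

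In the library labelled Gata12KO against WT, no member passed the size rule in either direction (0 higher and 0 lower of 10, where 0.785% of 10834 genes tested were higher and 3.83% lower). The member farthest from WT was Ets1, with 30.6 FPKM in the library labelled Gata12KO (29.4 to 31.9) and 15.8 in WT (14.7 to 16.9), a log2 ratio of 0.91 (SE 0.056). Its bounds were separate, and it passed the 2-fold limit under 3 scalings, at 1.00 with median-ratio scaling, 1.21 with the sum over transcripts of 300 nt or longer and 1.60 in TPM. Ets1 stayed inside the limit with a pseudocount of 0.1 (0.95), the length trend removed (0.83) and a pseudocount of 5 (0.78). With only the higher of its entries counted, the ratio was 0.68. Gabpa, the DNA-binding subunit of a factor that drives nuclear genes of mitochondria, came next, with 13.5 FPKM (13.0 to 14.0) and 8.61 in WT (8.14 to 9.09), a log2 ratio of 0.59 (SE 0.043). Ets2, Fli1 and Erg, the members that were lower in SclKO, lay at or a little above WT. Ets2 had 102 FPKM in the library labelled Gata12KO and 84.0 in WT (log2 ratio 0.28, SE 0.019), Fli1 had 44.8 and 39.5 (0.18, SE 0.029), and Erg had 8.09 and 7.91 (0.03, SE 0.072). Bounds were separate for Ets2 and Fli1 and overlapped for Erg.

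Etv2 was the member with the lowest ratio in this comparison, with 38.7 FPKM in the library labelled Gata12KO (36.8 to 40.6) and 49.0 in WT (46.4 to 51.7), a log2 ratio of -0.33 (SE 0.051). Its sign was not stable, at 0.12 with the length trend removed and 0.35 in TPM. Elk3 had 35.1 FPKM and 27.8 in WT (0.33, SE 0.029), and Elf2 had 18.6 and 14.5 (0.34, SE 0.049). Etv6 had 5.58 FPKM in the library labelled Gata12KO and 4.86 in WT (0.17, SE 0.052). Elf1 had 1.61 FPKM in the library labelled Gata12KO and 1.55 in WT, with overlapping bounds and a ratio of 0.03 (SE 0.080) that turned to -0.02 with the length trend removed. Counted by bounds alone, 8 of 10 members were separate from WT, 7 above it and 1 below, beside 62.7% of all genes tested. Elk3, Elf2, Etv6 and Elf1 were within 2-fold of WT, although TPM, which moved the median gene of this comparison up by 0.64 on the log2 scale, put Elk3 and Elf2 at 1.01.

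Setting the library labelled Gata12KO against SclKO, 4 of 10 members were higher, Ets2, Fli1, Erg and Ets1, and 0 were lower, where 3.47% of 10818 genes tested were higher and 3.85% lower. This comparison uses the same 2 libraries as those above, so its values restate them on another base. The log2 ratios were 2.60 for Ets2 (SE 0.036), 1.80 for Fli1 (SE 0.046), 1.58 for Ets1 (SE 0.069) and 1.55 for Erg (SE 0.10). Etv2 lay on the other side, at -0.85 (SE 0.048). Elk3 (0.45), Etv6 (0.60), Gabpa (0.35), Elf2 (0.02) and Elf1 (-0.03) lay between the limits. Bounds were separate for 8 of 10 members, beside 59.0% of all genes tested. Erg left the calls with a pseudocount of 5, at 0.88.

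Ets1 is the only member with more than 1 entry in the files. The entries differ by an exon of 261 nt, the sixth of 8 in the longer entry, on chromosome 9 from 32545684 to 32545944 of mm9, forward strand. This stretch of coding sequence belongs to the part of the protein that restrains DNA binding by the ETS domain, and transcripts that skip it give the shorter protein. The entry with the exon had 4.64 FPKM in SclKO (4.19 to 5.09), 15.5 in the library labelled Gata12KO (14.9 to 16.1) and 6.73 in WT (6.21 to 7.24). The entry without it had 4.94 FPKM in SclKO (4.46 to 5.41), 15.2 in the library labelled Gata12KO (14.5 to 15.8) and 9.09 in WT (8.49 to 9.68). The entry with the exon was 48.4% of Ets1 in SclKO (43.6 to 53.3 from the bounds), 50.5% in the library labelled Gata12KO (48.5 to 52.5) and 42.5% in WT (39.1 to 46.0). Intervals were separate between the library labelled Gata12KO and WT and overlapped between SclKO and WT. The split rests on how Cufflinks divides reads that fit both entries, and it cannot be checked in these files.

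Of the members, 4 form a pair of neighbouring gene pairs with the same layout. Erg (chromosome 16, 95581811 to 95751972, reverse strand, mm9) and Ets2 (chromosome 16, 95924014 to 95942656, forward strand) point away from each other, with 172042 nt between their 5′ ends. Fli1 (chromosome 9, 32229793 to 32348953, reverse strand) and Ets1 (chromosome 9, 32503627 to 32565405, forward strand) do so too, with 154674 nt between theirs. Both distances are between the entries as deposited, and another listed start of Erg lies 56228 nt further upstream, nearer to Ets2. All 4 had negative log2 ratios in SclKO against WT, namely Erg -1.52, Ets2 -2.32, Fli1 -1.62 and Ets1 -0.67, and kept that sign under every scaling tried. Their neighbours varied. On the far side of Ets2, the next genes of at least 1 FPKM were Psmg1, Brwd1, Hmgn1 and Get1, with ratios of 0.04, 0.26, -0.03 and 0.00, and beyond them Sh3bgr had 5.23 FPKM in SclKO and 1.87 in WT and was higher by the size rule (1.12). Beside Fli1, the potassium channel gene Kcnj5 had 0.271 FPKM in SclKO and 1.53 in WT (-0.99, inside the limit), and Arhgap32 had 4.79 and 3.03 (0.52).

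**Figure D4:**
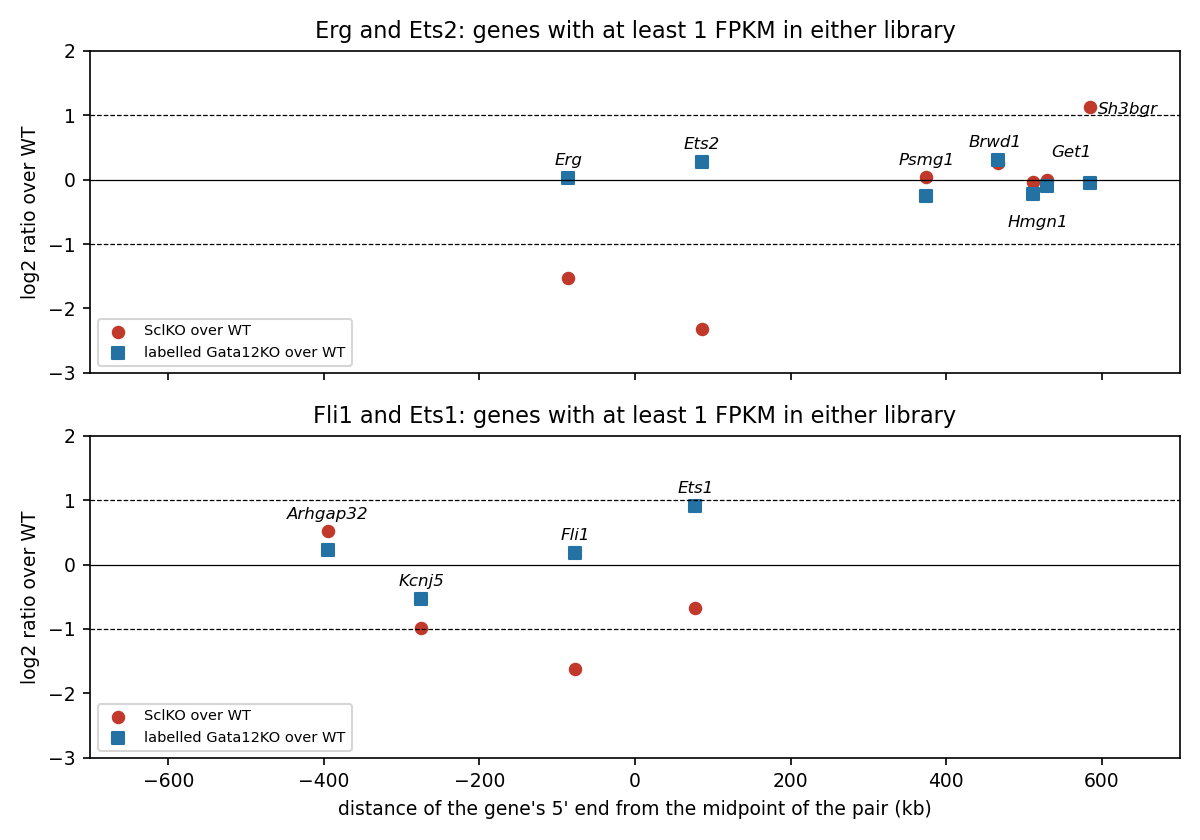
Log2 ratio over WT of SclKO (red circles) and the library labelled Gata12KO (blue squares) for genes around the Erg and Ets2 pair (upper) and the Fli1 and Ets1 pair (lower), by distance in kb of each 5′ end from the pair's midpoint, with genes of at least 1 FPKM in the libraries compared. The pair genes lie below zero in SclKO, while Psmg1, Brwd1, Hmgn1 and Get1 lie between -0.03 and 0.26.

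The other 6 members lie apart on the genome. Etv2 is at chromosome 7, 31418635 to 31420871, reverse strand, with 6 exons, and Elk3 at chromosome 10, 92710161 to 92773904, reverse strand, with 5. Etv6 is at chromosome 6, 133985725 to 134220165, forward strand, and Elf2 at chromosome 3, 51059587 to 51129909, reverse strand. Elf1 (chromosome 14, 79881001 to 79982283, forward strand) shares 75 exonic bases with Wbp4 on the opposite strand, and Gabpa (chromosome 16, 84835369 to 84864023, forward strand) shares 123 with Atp5j. The sources used here do not say whether counting used strand, so a small part of the reads of Elf1 and Gabpa could belong to those partners. Atp5j had 83.3 FPKM in SclKO, 64.9 in the library labelled Gata12KO and 79.1 in WT. The part of the shared bases in the level of Gabpa was not tested.

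Of 17 other ETS genes looked up, 16 were measured and 10 reached 1 FPKM in any library. Together the 16 came to 30.2 FPKM in SclKO, 22.9 in the library labelled Gata12KO and 27.6 in WT, so the 10 members held 84.9%, 92.9% and 90.2% of all ETS transcripts in that order. In SclKO against WT 1 of 10 was lower and 1 higher, where 4.30% of all genes tested were lower and 2.15% higher. A count of 1 of 10 is not read as a result about the list. With a pseudocount of 0.1, 3 were higher, and with a pseudocount of 5, 0 were. Spi1, the myeloid regulator PU.1, had 0.0312 FPKM in SclKO, 0.954 in the library labelled Gata12KO and 6.58 in WT, and was lower than WT in both (-2.88 and -1.95). Fev, known from serotonin neurons, had 4.58 FPKM in SclKO, 1.39 in the library labelled Gata12KO and 1.27 in WT, and was higher in SclKO (1.30), a call that ended with a pseudocount of 5. The FGF-induced group had its highest levels in SclKO, with Etv5 at 6.10 FPKM there, 2.62 in the library labelled Gata12KO and 2.81 in WT, Etv1 at 2.91, 1.19 and 1.50, and Etv4 at 1.31, 0.595 and 0.559. None of these 3 passed the limit against WT, at 0.90, 0.64 and 0.57 in SclKO. Elk1 (0.42), Elk4 (-0.39), Erf (0.25), Etv3 (-0.16) and Elf4 (-0.11) stayed within 2-fold of WT in SclKO.

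Endothelial genes commonly described as driven by ETS factors were often lower in SclKO. The list was drawn from general knowledge, with earlier results of these data known, and binding was not measured here. Of its 26 genes, 24 passed the minimum in SclKO against WT, with 11 lower and 0 higher, where 4.30% of all genes tested were lower and 2.15% higher. The median log2 ratio was -0.96, beside -0.04 over all genes tested. With a pseudocount of 5, 6 were lower. Nos3, which makes nitric oxide, had 2.31 FPKM in SclKO and 17.7 in WT (-2.50), and the junction gene Esam had 14.9 and 88.0 (-2.49). Cldn5, a tight junction gene, had 1.89 FPKM in SclKO and 10.5 in WT (-2.00), and the receptor Tie1 had 16.6 and 64.2 (-1.89). Others lay close to WT or above it. Pecam1, the CD31 of the sort, had 50.4 FPKM in SclKO and 48.3 in WT (0.06), and Nrp1, a co-receptor of VEGF, had 113 and 56.4 (0.99). In the library labelled Gata12KO against WT, 0.785% of all genes tested were higher and 3.83% lower. Of the list, 2 of 24 were higher, Kdr (96.3 FPKM and 42.1 in WT, 1.17) and Flt1 (19.6 and 8.72, 1.08), with 0 lower and a median of 0.24 beside -0.09 over all genes tested. With the length trend removed 1 was higher, with the sum over transcripts of 300 nt or longer 6, and in TPM 8. Against SclKO, 3.47% of all genes tested were higher in the library labelled Gata12KO and 3.85% lower. Of the list, 16 of 24 were higher and 1 lower, Nrp1 (38.0 FPKM and 113 in SclKO, -1.55), with a median of 1.31 beside -0.06 over all genes tested. With a pseudocount of 5, 10 were higher, and in TPM 22 were higher and the call of Nrp1 ended.

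Levels of the members over those of the 6 endothelial markers depended on the marker, since Cdh5 and Tie1 were themselves lower in SclKO. Ets2 over Pecam1 was 0.318 in SclKO (0.287 to 0.352 from the bounds), 1.53 in the library labelled Gata12KO (1.46 to 1.61) and 1.74 in WT (1.62 to 1.86). Ets2 over Tie1 was 0.967 in SclKO (0.875 to 1.07), 1.81 in the library labelled Gata12KO (1.74 to 1.87) and 1.31 in WT (1.25 to 1.37). For Ets2 the ratio was lower in SclKO than in WT over all 6 markers (Pecam1, Cdh5, Tie1, Tek, Kdr and Emcn), with separate intervals. Fli1 over Pecam1 was 0.241 in SclKO (0.215 to 0.270), 0.674 in the library labelled Gata12KO (0.636 to 0.714) and 0.817 in WT (0.753 to 0.887). Fli1 over Cdh5 was closer, at 0.283 in SclKO (0.258 to 0.311), 0.317 in the library labelled Gata12KO (0.306 to 0.329) and 0.341 in WT (0.324 to 0.358). Fli1 over Tie1 was 0.734 in SclKO (0.656 to 0.820), 0.794 in the library labelled Gata12KO (0.760 to 0.830) and 0.615 in WT (0.581 to 0.651). It was thus higher in SclKO than in WT, with separate intervals. The ratio of Erg also depended on the marker. Over Pecam1 it was 0.0418 in SclKO (0.0325 to 0.0520), 0.122 in the library labelled Gata12KO (0.110 to 0.135) and 0.164 in WT (0.142 to 0.187), while over Tie1 it was 0.127 in SclKO (0.0991 to 0.158), 0.143 in the library labelled Gata12KO (0.131 to 0.156) and 0.123 in WT (0.110 to 0.137), with overlapping intervals. Over Tek, Fli1 was 0.287 in SclKO and 0.628 in WT, and Erg was 0.0497 and 0.126. Over Kdr, Fli1 was 0.384 in SclKO and 0.938 in WT, and Erg was 0.0665 and 0.188. Over Cdh5, Erg was 0.0491 in SclKO and 0.0682 in WT. Intervals of SclKO and WT were separate in each of these. Over Emcn, the intervals of SclKO and WT overlapped for Fli1 and for Erg. The markers other than Pecam1 were added after the values were seen. Elk3 over Pecam1 was 0.505 in SclKO (0.463 to 0.551), 0.528 in the library labelled Gata12KO (0.499 to 0.559) and 0.575 in WT (0.530 to 0.625), with overlapping intervals.

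Blood regulators described as ETS targets were lower in SclKO for 7 of 10 genes, with 0 higher, where 4.30% of all genes tested were lower and 2.15% higher. Their median log2 ratio was -2.19, beside -0.04 over all genes tested, and it moved to -3.21 with a pseudocount of 0.1 and to -1.18 with a pseudocount of 5. The targeted Tal1 is among the 7, and this list too was chosen with earlier results of these data known. Itga2b, the CD41 excluded in the sort, had 0.333 FPKM in SclKO and 22.8 in WT (-4.16), and Lyl1, a relative of Scl, had 1.35 and 21.3 (-3.25). Kit, a receptor of blood and endothelial progenitors, had 25.1 FPKM in SclKO and 20.1 in WT (0.31). In the library labelled Gata12KO, Spi1 and Runx1 (0.854 FPKM and 4.56 in WT, -1.59) were lower, Gata2 was higher (1.82) and 7 lay between, with a median of -0.31 that turned to 0.36 in TPM. Of all genes tested against WT there, 3.83% were lower and 0.785% higher, with a median of -0.09. With a pseudocount of 5, Spi1 and Runx1 were no longer called. Against SclKO, the library labelled Gata12KO had 6 of 8 tested higher and 0 lower, with a median of 2.49. Of all genes tested against SclKO, 3.47% were higher and 3.85% lower, with a median of -0.06.

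Partners and turnover factors of ETS proteins mostly stayed near WT. Of 16 genes, 1 was higher in SclKO, Foxc1 (5.07 FPKM and 1.65 in WT, 1.20), and Foxc2 was higher in the library labelled Gata12KO (6.14 FPKM and 1.97 in WT, 1.27), with 0 lower in either. Of all genes tested, 2.15% were higher in SclKO and 0.785% in the library labelled Gata12KO, and 1 of 16 is not read as a result about the list. Neither was called with a pseudocount of 5. Both are forkhead factors that bind next to ETS factors at endothelial enhancers. Gabpb1, the partner subunit of Gabpa, had 24.0 FPKM in SclKO, 31.4 in the library labelled Gata12KO and 28.4 in WT. Srf, the partner of Elk3, had 9.26, 6.76 and 12.6 in the same order. Of 14 ERK and serum response genes, 11 passed the minimum, with Spred1, an inhibitor of ERK signalling, higher in SclKO (8.43 FPKM and 3.21 in WT, 1.16) and Dusp5, an ERK phosphatase, higher in the library labelled Gata12KO (3.34 and 0.424, 1.61). Of 10 nuclear genes of mitochondria with described GABP sites, 9 passed the minimum, and only Cox4i1 was called, lower in the library labelled Gata12KO (432 FPKM and 1172 in WT, -1.44), a call that ended in TPM and with the length trend removed. Of all genes tested against WT there, 3.83% were lower, and 1 of 9 is not read as a result about the list. Spred1 and Dusp5 were not called with a pseudocount of 5, and 1 of 11 is not read as a result about their list. Set against SclKO, the library labelled Gata12KO was lower in Foxc1 (1.93 FPKM and 5.07 in SclKO, -1.05) and Spry2, another ERK inhibitor (2.99 and 8.14, -1.20). Both calls ended with a pseudocount of 5 and in TPM, and that of Foxc1 also with the sum over transcripts of 300 nt or longer. Of all genes tested against SclKO, 3.85% were lower, and 1 gene in each list is not read as a result about the list.

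Markers of blood, and of mesenchyme and smooth muscle, differed between libraries, while heart muscle and pluripotent and epithelial markers had no call against WT. All 6 endothelial markers were above 1 FPKM in each library, with a sum of 188 FPKM in SclKO, 431 in the library labelled Gata12KO and 343 in WT. Of 8 blood markers, 0 reached 1 FPKM in SclKO, 4 did in the library labelled Gata12KO and 6 in WT, with sums of 1.09, 32.7 and 190 FPKM. Ptprc, the pan-leukocyte CD45, was listed at 0 in SclKO and WT, and Gata1 was listed at 0 in SclKO. The globin Hba-x was listed at 0 in the library labelled Gata12KO and had 71.3 FPKM in WT, Hbb-bh1 had 5.66 and 76.8, and Itga2b had 17.6 FPKM in the library labelled Gata12KO and 22.8 in WT. Of 6 mesenchyme and smooth muscle markers, 5 reached 1 FPKM in each library, with sums of 92.5 FPKM in SclKO, 23.4 in the library labelled Gata12KO and 57.5 in WT. Acta2 was the largest of these, at 55.1, 11.7 and 42.1 FPKM. Heart muscle markers summed to 14.6, 10.1 and 11.9 FPKM, and pluripotent and epithelial markers to 6.85, 6.33 and 6.30, in the same order. Against WT, Col3a1 (1.92) and Pdgfrb (1.58) were higher in SclKO, and Acta2 was lower in the library labelled Gata12KO (-1.76). The part of other cells in the member levels was not tested.

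Genes with a pattern most like a member were sought over the 3 libraries, as the distance between log2(FPKM + 1) values centred on each gene's mean, among 7390 named genes of at least 5 FPKM in any library with a transcript of 300 nt or longer. Nearest to Fli1 were Cyp4b1 (distance 0.033; 1.36 FPKM in SclKO, 7.08 in the library labelled Gata12KO and 6.37 in WT), Slc1a3 (0.057) and Tmtc2 (0.068). Nearest to Erg were Sema6d (0.061; 2.13, 8.53 and 7.81 FPKM), Tmem100 (0.087) and Sema6a (0.099). Nearest to Etv2 were Pknox2 (0.007; 6.35, 3.10 and 4.14 FPKM), Twist1 (0.042) and Rrbp1 (0.044). With 3 libraries many genes share a pattern, and 32, 33 and 281 genes lay within 0.25 of Fli1, Erg and Etv2.

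**Figure D5:**
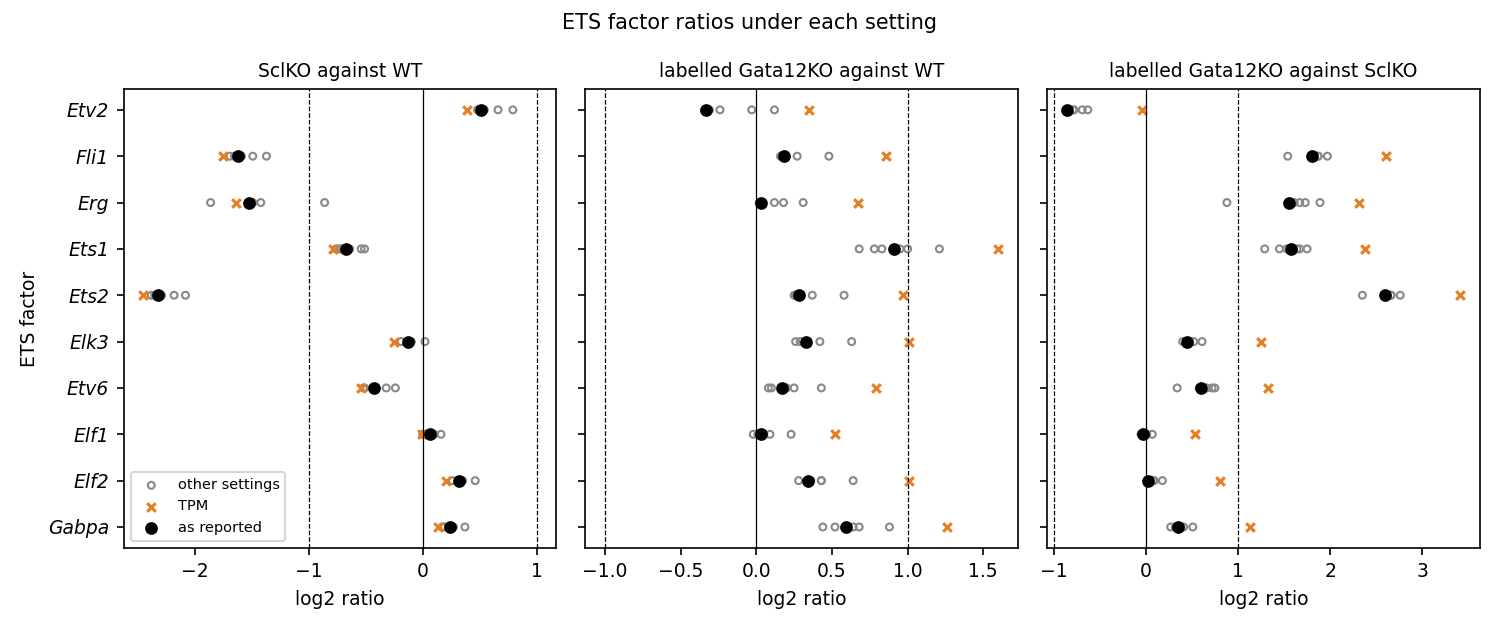
Log2 ratio of each ETS factor (horizontal) in SclKO against WT, the library labelled Gata12KO against WT and the library labelled Gata12KO against SclKO, as reported (black), in TPM (orange crosses) and under 6 other settings (open circles), with dashed lines at 2-fold. Ets2 and Fli1 stay beyond the line in SclKO against WT, Erg crosses it at -0.86, and TPM moves both comparisons of the library labelled Gata12KO to the right.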

How the data were processed

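RNA of 3 sorted cell pools was measured, 1 library per genotype. Per the labels' protocols, reads of 50 nt came from an Illumina HiSeq. The authors deposited FPKM values with a lower and an upper bound for 30123 RefSeq entries per library, and the files name Cufflinks as their source. TopHat2 2.0.4, Cufflinks 2.0.1, Cuffdiff, mm9 and hg19 appear, without their roles, in the submitters' processing notes. Coordinates are printed as deposited and taken as mm9, the mouse build among those.

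Symbols came from RefSeq tables of GRCm38.p6 (29030 of 29610 accessions, 173 more from GENCODE, 407 unnamed). Between files, 136 entries differed in accession and were matched by exon structure; 134 of these had differing symbols and were dropped. FPKM and bounds were summed per symbol. For genes with 1 entry the bounds were taken as 2 Poisson SDs from each value. This gave depth from entries of at least 100 fragments, with 94.4% to 94.6% of entries within 1% of the fit. The length trend was a running median over 501 genes. Calculations used Python 3.11.15, pandas 2.3.3 and numpy 2.4.6. Named genes were all 10 members, other ETS genes of at least 1 FPKM, of each other list up to 4 called genes with the largest absolute log2 ratio per comparison, genes a statement turns on, and the 3 genes most like Fli1, Etv2 and Erg. The members and lists were chosen with earlier results of these data known.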

Additional observations from a re-analysis of the deposited data

How the results depend on the processing

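No paired analysis was possible because each group had 1 library. Over 11 alternatives, the 3 lower members of SclKO against WT numbered between 2 and 4, and no called ratio changed sign in any comparison. In the library labelled Gata12KO against WT, where 0 members were higher, 1 was higher with median-ratio scaling and 1 with the sum over transcripts of 300 nt or longer (Ets1 each time), 2 with a 1.5-fold limit (Ets1 and Gabpa) and 4 in TPM (Ets1, Elk3, Elf2 and Gabpa). In the library labelled Gata12KO against SclKO, where 4 were higher and 0 lower, 7 were higher in TPM and 1, Etv2, was lower with a 1.5-fold limit. The cause was not tested. TPM moved the median gene by -0.11, 0.64 and 0.75 (log2) in SclKO against WT, the library labelled Gata12KO against WT and the library labelled Gata12KO against SclKO, and the sum over transcripts of 300 nt or longer moved it by 0.13, 0.28 and 0.15. Of genes called in the library labelled Gata12KO against WT, 83.0% were lower (85 higher and 415 lower), which became 72.1% with median-ratio scaling, 44.1% with that sum, 8.05% in TPM and 51.9% with the length trend removed. In SclKO against WT 66.7% were lower, and 53.1% with that sum. Of those called in the library labelled Gata12KO against SclKO, 52.6% were lower, 38.9% with that sum and 5.31% in TPM. Counting error limits Erg and Elf1 most.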
